A study of Rattus norvegicus with 8 samples.

Results

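The genes described here are 41 genes that rods and cones use to turn light into an electrical signal, together with regulators that switch such genes on. They were taken as a fixed list of gene symbols, and 37 of the 41 had at least 1 probe with a single symbol, among 14802 named genes on the array. Gngt2, Pde6g, Cngb3 and Nr2e3 had no such probe and so no ratio, and of them only Nr2e3 entered the promoter search below. By textbook knowledge the list was split into 12 rod genes (10 measured), 12 cone genes (10 measured) and 17 genes that both kinds of cell use (all measured). The list was not chosen by a threshold on these data, but it was drawn up with earlier results of the same arrays known.

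The study compared large with small retinal ganglion cells of the rat. Ganglion cells, the retinal neurons whose axons form the optic nerve, had been labelled backwards along their axons with the tracer 4DI-10ASP. The retinas were dissected fresh, actinomycin D was present to stop new transcription, and the cells were sorted by fluorescence into large and small cells. RNA of each fraction was amplified in 2 rounds, and RNA from large and from small cells was hybridised together on each of 8 arrays, named here by their title numbers. The labels list large cells as Cy5 (channel 1) and small cells as Cy3 (channel 2) on every array. The sources used here do not give strain, sex, age or the number of animals behind each array.

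In a photoreceptor, light activates a visual pigment, which activates the G protein transducin, which in turn activates a phosphodiesterase that breaks down cyclic GMP. Cation channels held open by cyclic GMP then close, and the cell hyperpolarises. Rods and cones use related but separate genes for most of these steps. Ganglion cells receive this signal through other neurons and do not themselves use the rod and cone cascade. Members with wider use in the nervous system include Gnb1, Gnb3, Pde6d, Unc119, Rorb, Thrb and Slc24a2, and the list may not be complete.

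Each value is a log2 ratio of the channels of an array, so 1 unit is a doubling. The direction of the ratio is not settled, and values are given as positive or negative. If the ratio runs from channel 1 to channel 2 as the labels list them, positive means higher in large cells. Arrays 39, 41, 43 and 70 (set 1) resembled one another, and so did arrays 40, 42, 69 and 71 (set 2), with Pearson correlations over all probes from 0.22 to 0.68 in these 12 pairs. Of the 16 pairs across sets 15 had a negative correlation, the lowest at -0.32, and 2 lay under -0.3. The labels give the same dye orientation on all arrays, whereas the series' own design text describes a dye swap. Because of this, results are given for the plain mean of the 8 arrays and again, further on, with the signs of set 2 turned. Which of the 2 means compares large with small cells cannot be read from the files, and whether the sets are the dye orientations was not tested. An array ratio gives no level, so whether any of these transcripts was abundant or scarce in either fraction cannot be read from it.

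In the mean of the 8 arrays, phototransduction genes lay on the positive side. Of the 37 measured genes 34 had a mean ratio above 0, against 48% of all 14801 genes tested, and the median was 0.26, against -0.01 over all genes. Called by limma (adjusted p under 0.05 over all genes) were 4 members, all positive, where 0.568% of all genes were called on that side. They were Ppef2, a calcium-binding phosphatase of photoreceptors, Slc24a1, the rod exchanger that carries calcium out of the outer segment, Gnat2, the alpha subunit of cone transducin, and Rdh12, a photoreceptor dehydrogenase that reduces retinaldehyde. On the negative side 0 members were called, where 1.62% of all genes were, and 0 members had an unadjusted limma p under 0.05 there, where 7.88% of all genes had. On the positive side 20 of 37 members had an unadjusted limma p under 0.05, against 5.2% of all genes. Positive on all 8 arrays were 7 members, against 1.55% of all genes, and negative on all 8 were 0, against 2.86%. These counts use the mean over the probes of a gene, and single probes of Arr3, Thrb, Rdh12 and Gnat2 were negative on some arrays. Whether the plain mean compares large with small cells cannot be read from the files, and an effect of the dyes on it was not tested. If it does, a lower share of photoreceptor cells in a fraction and less photoreceptor RNA per cell cannot be told apart in bulk samples.

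Ppef2 had log2 ratios of 0.33, 0.66, 0.48 and 1.11 in set 1 (here and below in the order 39, 41, 43, 70), and of 0.39, 0.86, 0.59 and 0.97 in set 2 (in the order 40, 42, 69, 71). It was positive on all 8 arrays, the sets overlapped, and the mean was 0.67 ± 0.28 (SD, n = 8 arrays; 1.59-fold, limma adjusted p = 0.00993). Slc24a1 had values of 0.33, 0.94, 0.71 and 0.83 in set 1 and of 0.36, 0.75, 0.65 and 0.74 in set 2. Arrays 39 and 40 were the lowest, and the mean was 0.66 ± 0.21 (1.59-fold, limma adjusted p = 0.00651). Rdh12 had values of 0.41, 0.60, 0.30 and 0.48 in set 1 and of 0.44, 0.63, 0.30 and 0.40 in set 2, so that the set means were nearly equal. Its mean was 0.45 ± 0.12, the smallest SD of the called members (1.36-fold, limma adjusted p = 0.00921). This SD is that of the mean of 2 probes, which had SDs of 0.28 and 0.43 and differed in pattern between arrays. Gnat2 had values of 0.51, 0.69, 0.73 and 0.84 in set 1 and of 0.24, 0.39, 0.35 and 0.59 in set 2, with a mean of 0.54 ± 0.21 (1.45-fold, limma adjusted p = 0.0105). All 4 genes were thus positive on 8 of 8 arrays, and their mean changes stayed under 2-fold, while Ppef2 passed 2-fold on array 70. When arrays next to each other in the order of title numbers were averaged first, as possible technical subreplicates (39 with 40, 41 with 42, 43 with 69, which are not consecutive numbers, and 70 with 71), 0 genes of all 14801 were called, and the limma adjusted p of these 4 lay between 0.0931 and 0.0990. At an unadjusted limma p under 0.05 these averages gave 18 of 37 members on the positive side, against 4.89% of all genes, and 0 on the negative side, against 8.14%.

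**Figure D1:**
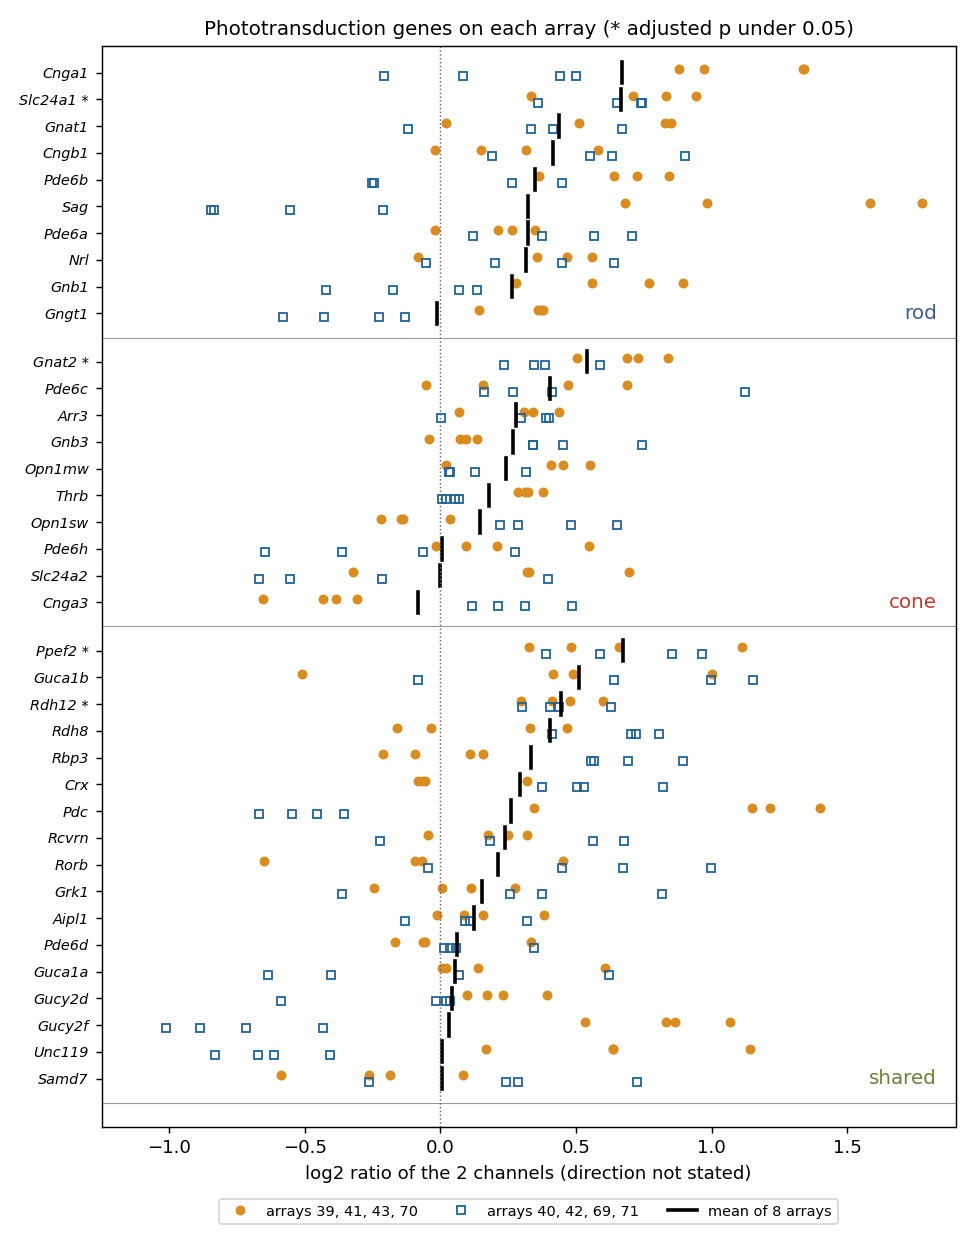
Log2 ratio of each of the 37 measured genes on each of the 8 arrays (x axis), with genes grouped as rod, cone and shared and ordered by mean. Filled circles are set 1, open squares set 2, bars the mean of 8 arrays, and asterisks the 4 called genes. Slc24a1, Gnat2, Ppef2 and Rdh12 lie right of 0 on all arrays, whereas the circles and squares of Sag, Pdc, Gucy2f and Unc119 lie on opposite sides of 0.

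The regulatory letters upstream of the genes were set beside these values, because CRX, the homeodomain factor that drives photoreceptor genes, is itself a member. Promoters of 30 of the 41 genes were in the RefSeq table (build GRCr8), and the 250 bases before the annotated start were searched on both strands for TAATCC, a core of sites that CRX binds. The core was found before 11 of these 30 genes (36.7%), and before 6.34% of all 33469 promoters in the table. A second motif, TGCTGA, part of the element bound by the rod factor NRL, was found before 7 of the 30 (23.3%), and before 15.1% of all promoters. The motifs do not overlap in letters. Shown are the promoters of the called gene Ppef2, of Cngb1, with 2 cores, of Gucy2f, with 2 cores and opposite signs in the sets of arrays, and of Rbp3, higher in set 2, with the TAATCC core or its reverse complement in capitals.
Ppef2, chr14:16081456-16081705, plus strand: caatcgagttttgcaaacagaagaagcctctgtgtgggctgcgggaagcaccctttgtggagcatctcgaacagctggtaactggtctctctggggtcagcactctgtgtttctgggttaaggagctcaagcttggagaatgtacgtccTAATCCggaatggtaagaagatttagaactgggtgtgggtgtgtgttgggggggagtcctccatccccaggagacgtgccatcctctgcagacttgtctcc
Cngb1, chr19:9732396-9732645, plus strand: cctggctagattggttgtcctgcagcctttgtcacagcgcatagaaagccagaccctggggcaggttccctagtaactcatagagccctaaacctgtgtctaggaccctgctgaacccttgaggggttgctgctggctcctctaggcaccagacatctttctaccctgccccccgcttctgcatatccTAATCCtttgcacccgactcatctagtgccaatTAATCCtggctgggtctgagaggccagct
Gucy2f, chrX:110605018-110605267, minus strand: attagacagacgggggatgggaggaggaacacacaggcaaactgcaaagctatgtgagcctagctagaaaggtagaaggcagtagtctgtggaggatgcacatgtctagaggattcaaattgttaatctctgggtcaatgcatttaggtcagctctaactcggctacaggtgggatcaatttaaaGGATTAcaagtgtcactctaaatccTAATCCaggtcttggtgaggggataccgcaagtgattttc
Rbp3, chr16:9273537-9273786, plus strand: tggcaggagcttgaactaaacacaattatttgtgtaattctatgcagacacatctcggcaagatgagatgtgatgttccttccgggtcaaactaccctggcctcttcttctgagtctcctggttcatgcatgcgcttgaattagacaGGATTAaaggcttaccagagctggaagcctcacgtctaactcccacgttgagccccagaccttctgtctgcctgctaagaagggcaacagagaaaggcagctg
The core nearest to the start began 101 bases before it in Ppef2, 29 in Cngb1, 40 in Gucy2f and 103 in Rbp3. Of the other called genes, Slc24a1 and Rdh12 held no TAATCC in this window, and Gnat2 had no promoter in the table. A match describes letters and is no evidence of binding.

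Rod genes had a median mean ratio of 0.34 over 10 genes, cone genes of 0.21 over 10, and shared genes of 0.21 over 17. Members with a positive mean were 9 of 10 rod, 8 of 10 cone and 17 of 17 shared genes. With an unadjusted limma p under 0.05 on the positive side there were 7 rod, 6 cone and 7 shared genes, where 5.2% of all genes had one. The class means differed in how far they moved between arrays. The rod mean was 0.39, 0.61, 0.61 and 0.80 in set 1, and 0.04, 0.16, 0.07 and 0.32 in set 2, so that the lowest array of set 1 lay above the highest of set 2. By the median over rod genes the sets overlapped, with 0.31 on array 39 of set 1 and 0.39 on array 71 of set 2. Cngb1 and Pde6a had higher means in set 2, and the other measured rod genes had higher means in set 1. The cone mean ran from 0.12 to 0.33 over the 8 arrays, with the sets at 0.19 and 0.20. The shared mean ran from 0.06 on array 40 to 0.47 on array 70. The rod mean exceeded the cone mean by 0.18 ± 0.27 (SD, n = 8 arrays) and did so on 5 arrays, all 4 of set 1 and array 71. This difference rests on chosen members and was not tested.

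**Figure D2:**
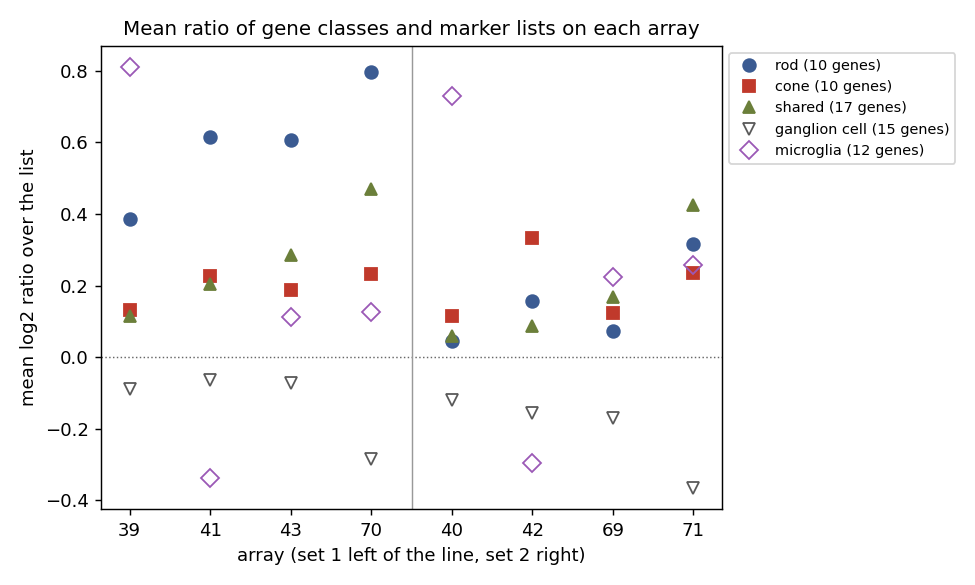
Mean log2 ratio of the rod, cone and shared genes and of 2 marker lists (y axis) on each of the 8 arrays (x axis), with set 1 left of the line and set 2 right. Rod genes run from 0.39 to 0.80 in set 1 and from 0.04 to 0.32 in set 2, cone genes keep between 0.12 and 0.33, ganglion cell markers lie below 0 on all arrays, and microglia markers are highest on arrays 39 and 40.

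Visual pigments and transducin come first in the cascade. Opn1mw, the middle-wavelength cone opsin, ranged from 0.02 to 0.55 with a median of 0.22. It was positive on all 8 arrays, with a mean of 0.24 ± 0.21 that did not pass the test (limma adjusted p = 0.192). Opn1sw, the short-wavelength cone opsin, was at -0.15, -0.22, -0.14 and 0.04 in set 1 and at 0.65, 0.29, 0.22 and 0.48 in set 2, without overlap. Its mean of 0.15 ± 0.32 thus came from set 2. Gnat1, the alpha subunit of rod transducin, ranged from -0.12 on array 40 to 0.85 on array 43, with a mean of 0.44 ± 0.35 (limma adjusted p = 0.0927), against 0.54 for its called cone counterpart Gnat2. Gnat1 exceeded Gnat2 on 4 of 8 arrays. Gnb1, the rod beta subunit that many other cells use, lay at 0.26 ± 0.46, and Gnb3, the cone beta subunit, which ON bipolar cells use too, at 0.27 ± 0.25. These equal means hid opposite patterns. Gnb1 was higher in set 1 (0.28 to 0.89) than in set 2 (-0.42 to 0.14), and Gnb3 was higher in set 2 (0.34 to 0.74) than in set 1 (-0.04 to 0.13). Gngt1, the rod gamma subunit, lay between 0.14 and 0.38 in set 1 and between -0.58 and -0.13 in set 2, with a mean of -0.01 ± 0.38.

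Among the phosphodiesterase subunits, the catalytic ones lay close together. Pde6a and Pde6b, the rod catalytic subunits, had means of 0.32 ± 0.23 and 0.35 ± 0.41, and Pde6c, the cone catalytic subunit, of 0.40 ± 0.37. Pde6a and Pde6c were positive on 7 of 8 arrays each, with array 39 the exception in both. The limma adjusted p was 0.0946 for Pde6a, 0.138 for Pde6c and 0.263 for Pde6b. Pde6h, the cone inhibitory subunit, lay at 0.00 ± 0.37 with 4 arrays on each side of 0. Pde6d, a carrier of lipid-anchored proteins in many cells, lay at 0.06 ± 0.19.

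The rod genes Cnga1 and Slc24a1 had higher plain means than their cone counterparts. Cnga1, the alpha subunit of the rod channel, was at 0.88, 1.34, 0.97 and 1.34 in set 1 and at 0.44, 0.50, -0.21 and 0.08 in set 2. It was positive on 7 of 8 arrays, the sets did not overlap, and its mean of 0.67 ± 0.56 was as high as those of called genes but missed the threshold (limma adjusted p = 0.0879). Cnga3, the cone alpha subunit, was at -0.31, -0.43, -0.65 and -0.39 in set 1 and at 0.12, 0.48, 0.21 and 0.31 in set 2, with a mean of -0.08 ± 0.41. It changed sign in the opposite sense to the rod subunit, and Cnga1 minus Cnga3 was 0.75 ± 0.93, positive on 6 of 8 arrays. Cngb1, the beta subunit of the rod channel, ranged from -0.02 to 0.90 with a mean of 0.41 ± 0.31 (limma adjusted p = 0.0762). Slc24a2, the cone exchanger, which brain neurons use too, lay at 0.00 ± 0.50, from -0.67 on array 71 to 0.69 on array 41. The rod exchanger Slc24a1 exceeded it on 8 of 8 arrays, by 0.67 ± 0.49. Of 7 rod and cone pairs set side by side with the signs as deposited, no other had the same order on all arrays. With the signs of set 2 turned, this pair had 4 arrays each way (mean difference -0.22 ± 0.83), and Cnga1 minus Cnga3 was 0.83 ± 0.85. Sag minus Arr3 was then 0.93 ± 0.33 and Gnb1 minus Gnb3 0.56 ± 0.33, both positive on 8 of 8 arrays. No pair was tested.

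Proteins that shut the response off included Sag, the member with the widest gap between the set means, and Pdc, which after Gucy2f had the next widest. Sag, rod arrestin, which caps the activated pigment, was at 1.58, 0.68, 0.98 and 1.78 in set 1 and at -0.21, -0.83, -0.85 and -0.55 in set 2. Its mean of 0.32 ± 1.07 therefore described no single array. Pdc, phosducin, which binds transducin beta and gamma subunits, was at 0.34, 1.22, 1.15 and 1.40 in set 1 and at -0.67, -0.35, -0.55 and -0.46 in set 2, with a mean of 0.26 ± 0.88. Arr3, cone arrestin, showed no such split in its gene mean, with values from 0.00 to 0.44, a median of 0.32 and set means of 0.29 and 0.27. Its 3 probes differed, with set 1 and set 2 means of 0.76 and 0.30, 0.00 and 0.53, and 0.10 and -0.02. The gene mean was positive on all 8 arrays at 0.28 ± 0.16, whereas the probes were positive on 7, 6 and 3 arrays. Arr3 had the lowest limma adjusted p of the members not called, 0.0727. Rcvrn, recoverin, a calcium sensor that restrains the pigment kinase, lay at 0.24 ± 0.29, and the kinase Grk1 at 0.15 ± 0.37. Both were positive on 6 of 8 arrays, and neither passed the test.

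Cyclic GMP is remade by membrane guanylate cyclases and their calcium-sensing activators. Gucy2f, a photoreceptor cyclase, was at 1.07, 0.53, 0.83 and 0.87 in set 1 and at -0.43, -1.01, -0.72 and -0.88 in set 2, so that its mean was 0.03 ± 0.88. The other photoreceptor cyclase, Gucy2d, for which the RefSeq table gives the synonym RETGC-1, lay between -0.02 and 0.39 on 7 arrays and stood at -0.59 on array 40, with a mean of 0.04 ± 0.29. Guca1b, an activator of the cyclases, was at -0.51 and -0.08 on arrays 39 and 40 and between 0.41 and 1.15 on the other 6, with a mean of 0.51 ± 0.58 (limma adjusted p = 0.211). Guca1a, its close relative, lay at 0.05 ± 0.43 and did not share that pattern, with its 2 highest values, 0.61 and 0.62, on arrays 70 and 71.

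Retinoid enzymes and carriers were all positive in the mean. Beside Rdh12, Rdh8, the outer segment retinol dehydrogenase, lay at 0.41 ± 0.35 (limma adjusted p = 0.121) and Rbp3, the retinoid carrier between photoreceptors and pigment epithelium, at 0.33 ± 0.40 (limma adjusted p = 0.268). Rbp3 was at -0.21, -0.09, 0.11 and 0.16 in set 1 and at 0.57, 0.55, 0.69 and 0.89 in set 2, without overlap. Of the factors that control these genes, Nrl, which specifies rods, lay at 0.32 ± 0.27 (limma adjusted p = 0.139), positive on 6 of 8 arrays with arrays 39 and 40 below 0. Crx lay at 0.29 ± 0.33, with -0.07, -0.06, -0.08 and 0.32 in set 1 and 0.50, 0.38, 0.53 and 0.82 in set 2. Rorb, a nuclear receptor upstream of Nrl in mice, lay at 0.21 ± 0.53 and Thrb, the thyroid hormone receptor that specifies middle-wavelength cones in mice, at 0.18 ± 0.16. Thrb was positive on all 8 arrays, and its set 1 values, 0.29 to 0.38, lay above those of set 2, 0.01 to 0.07. Samd7, a repressor protein of photoreceptors, lay at 0.00 ± 0.41. Of the trafficking factors, Aipl1, a chaperone for phosphodiesterase, lay at 0.13 ± 0.17. Unc119, which carries lipid-anchored transducin, was at 1.14, 0.17, 0.64 and 0.64 in set 1 and at -0.67, -0.83, -0.61 and -0.41 in set 2, with a mean of 0.01 ± 0.74.

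The split between the sets ran through the list in both directions. Set 1 values lay wholly above set 2 values for 9 of 37 members (24.3%, against 16.8% of all genes), namely Sag, Pdc, Gucy2f, Unc119, Cnga1, Gnb1, Gngt1, Gucy2d and Thrb. Set 2 values lay wholly above set 1 values for 5 (13.5%, against 18.1% of all genes), namely Cnga3, Rbp3, Opn1sw, Crx and Gnb3. The first group held 4 of 10 measured rod genes, 1 of 10 cone genes and 4 of 17 shared genes. In the second were 0 rod, 3 cone and 2 shared genes. These counts are small, and a difference between the classes was not tested. With the signs of set 2 turned, limma called 6 members on the positive side, where 13.6% of all genes were called. They were Sag at 0.93 (limma adjusted p = 0.00276), Gucy2f at 0.79 (0.00033), Pdc at 0.77 (0.00284), Unc119 at 0.64 (0.00136), Gnb1 at 0.36 (0.0456) and Gngt1 at 0.33 (0.0036). On the negative side it called 2, Cnga3 at -0.36 (0.00277) and Opn1sw at -0.26 (0.0264), where 14.5% of all genes were called. The 4 members called on the plain mean had turned means of 0.15 (Gnat2), 0.04 (Slc24a1), 0.00 (Rdh12) and -0.03 (Ppef2), and none of them was called. The class medians were 0.20 for rod, 0.06 for cone and -0.05 for shared genes when turned. No member was called on both means. Over the 37 members the turned median was 0.01, and 21 turned means were positive and 16 negative.

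**Figure D3:**
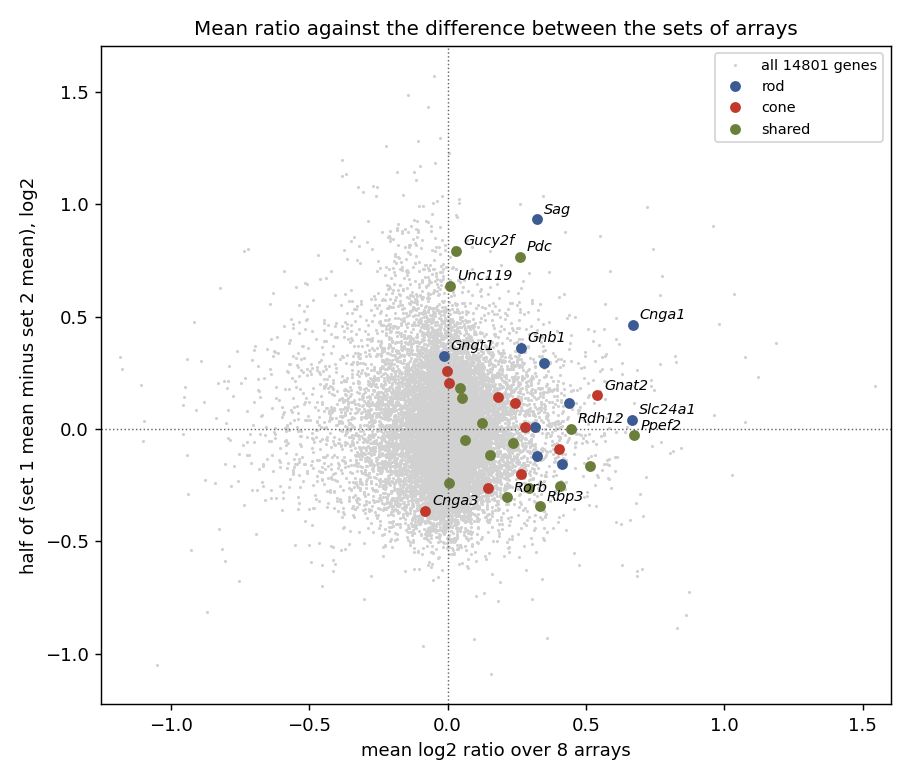
Mean log2 ratio over the 8 arrays (x axis) against set 1 minus set 2, divided by 2 (y axis, equal to the mean with the signs of set 2 turned), for all 14801 genes in grey and the members in colour. Slc24a1, Ppef2 and Rdh12 lie far right near the horizontal line, Sag, Gucy2f, Pdc and Unc119 lie high, and Cnga3 lies low.

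With set added to the model, which takes the split out of the residual, limma called 13 members on the plain mean, all positive, against 1.91% of all genes on that side, and 0 negative, against 4.36%. The 4 called genes were among them, joined by Cnga1, Cngb1, Pde6a, Arr3, Gnb3, Thrb, Rdh8, Rbp3 and Crx. Without arrays 39 and 40 it called 7 members, all positive, against 0.953% of all genes, and 0 negative, against 1.7%. These were the same 4 with Gnat1 at 0.60, Guca1b at 0.78 and Nrl at 0.45.

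Probes of a gene did not always give the same ratio. Of the 37 members 27 had 1 probe and 10 had several. The Gnat2 probes had equal means, 0.54 each, although 1 ranged from -0.22 to 1.05 and the other from 0.30 to 0.73. On arrays 39, 40, 41 and 42 the Rdh12 probes went opposite ways. The first was at 0.65, 0.67, -0.04 and -0.01 there, and the second at 0.17, 0.20, 1.23 and 1.27. The first was positive on 6 of 8 arrays and the second on all 8. The Cngb1 probes differed. The first, listed with the RefSeq transcript, was at 0.73, 0.83, 0.86 and 1.16 in set 1 and at 0.51, 0.71, 0.68 and 0.93 in set 2, positive on all 8 arrays at 0.80 ± 0.19. The second, listed with another sequence entry, lay at 0.03 ± 0.60, so the gene mean of 0.41 describes neither. The Rbp3 probes, listed with the same transcript, lay at 0.65 ± 0.64 and 0.02 ± 0.17. The 3 Arr3 probes lay at 0.53, 0.27 and 0.04, and the 6 Thrb probes ran from -0.11 to 0.68. The Thrb probes were positive on 8, 4, 5, 5, 8 and 7 arrays, although the gene mean was positive on all 8. All 5 Gnb1 probes are listed with the same transcript, yet 1 had set means of 1.29 and -0.54 and another of 0.28 and 0.41, so the split between the sets was not shared by all probes of this gene.

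**Figure D4:**
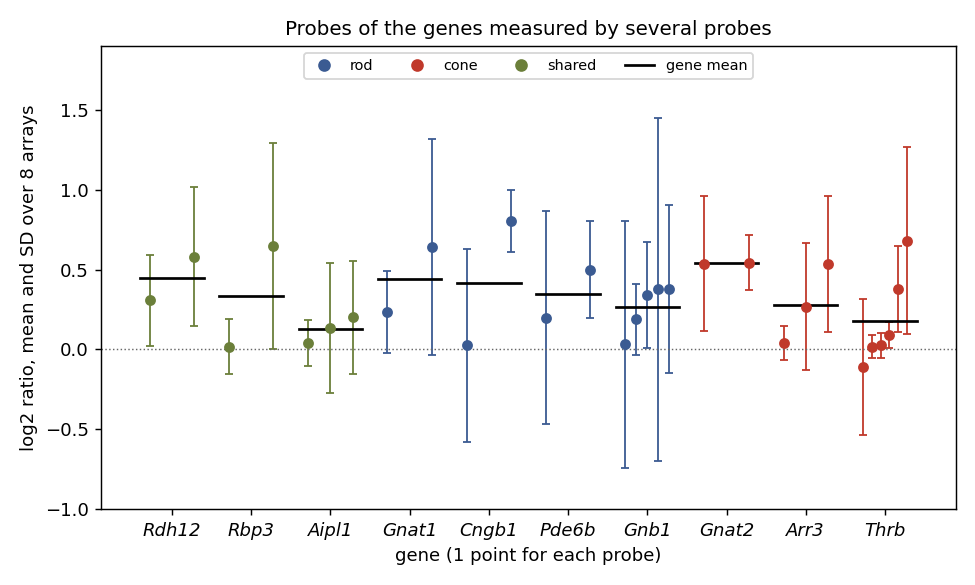
Mean log2 ratio and SD over 8 arrays (y axis) of each probe of the 10 genes with several probes (x axis), coloured by class, with the gene mean as a bar. The Cngb1 probes at 0.03 and 0.80 and the Rbp3 probes at 0.02 and 0.65 lie apart, whereas the Gnat2 probes coincide at 0.54.

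Other photoreceptor genes were set beside the members. Over all genes limma called 0.568% positive and 1.62% negative on the plain mean. Of 13 measured genes of the outer segment it called 4, all positive. Prom1, needed to build outer segment discs, lay at 1.07 ± 0.20, Rp1, a protein of the outer segment axoneme, at 0.83 ± 0.57, Abca4, the retinoid flippase of the discs, at 0.40 ± 0.10, and Impg1, of the matrix between photoreceptors, at 0.40 ± 0.25. Of 11 measured partners of the cascade, limma called 2 positive and 1 negative. Tulp1, a photoreceptor trafficking protein, lay at 0.72 ± 0.42 and Cacna1f, the calcium channel of the photoreceptor synapse, at 0.56 ± 0.31. Rgs9, which speeds the shut-off of transducin, lay at -0.58 ± 0.28, negative on all 8 arrays. Of 8 other photoreceptor regulators, Otx2 at 0.49 ± 0.21 and Neurod1 at 0.57 ± 0.25 were called, and bipolar and amacrine cells, respectively, use these too. Means were positive for 10 of 13 outer segment genes (76.9%), 10 of 11 partners (90.9%) and 5 of 8 regulators (62.5%), against 48% of all genes. The plain list medians were 0.40, 0.18 and 0.07, in the same order. Of 8 measured visual cycle genes, which mostly act in the pigment epithelium and Müller glia, Rlbp1, a retinaldehyde-binding protein, was called at 0.50 ± 0.31, and the list median was 0.00. Pigment epithelium markers had a median of 0.02 over 6 genes with 0 called. Their largest value in size was Tyrp1 at -0.25 ± 0.53. With the signs of set 2 turned, none of these called genes was called. The turned means were 0.03 for Prom1, 0.30 for Rp1, 0.00 for Abca4, -0.08 for Impg1, -0.22 for Tulp1, -0.18 for Cacna1f, 0.02 for Rgs9, 0.12 for Otx2, 0.05 for Neurod1 and -0.05 for Rlbp1. The turned list medians were 0.03 for the outer segment, -0.02 for partners, -0.02 for other regulators, 0.01 for the visual cycle and 0.02 for pigment epithelium.

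Markers of the labelled cells were mostly negative in the plain mean. Ganglion cell markers had negative means in 12 of 15 measured genes (20% positive, against 48% of all genes), with a median of -0.16. Of them limma called 2, Slc17a6, the vesicular glutamate transporter, at -0.64 ± 0.38 and the surface protein Thy1 at -0.30 ± 0.11. With the signs of set 2 turned, Slc17a6 lay at 0.27 and Thy1 at 0.05, neither was called, and the list median was 0.05, with 3 other markers called positive and 3 negative (13.6% and 14.5% of all genes). The list mean of ganglion cell markers was -0.09, -0.06, -0.07 and -0.28 in set 1 and -0.12, -0.16, -0.17 and -0.37 in set 2. The mean over the phototransduction genes was 0.19, 0.32, 0.35 and 0.49 in set 1 and 0.07, 0.17, 0.13 and 0.34 in set 2. Arrays 70 and 71 had the lowest ganglion cell values and, each within its set, the highest phototransduction means. Arrays 41 and 43, with the least negative ganglion cell values, had phototransduction means close to that of array 71. Microglia markers had positive means in 11 of 12 genes (91.7%) and 0 called, but array 39 (list mean 0.81) and array 40 (0.73) stood far above array 41 (-0.34) and array 42 (-0.30), with the other 4 between 0.11 and 0.26. Positive means were found for 5 of 8 bipolar markers (62.5%), 8 of 10 amacrine markers (80%) and 7 of 10 Müller glia markers (70%), beside the same 48% of all genes. Called among these were Trpm1, the ON bipolar channel, at 0.42 ± 0.16 (turned 0.10, not called) and Rlbp1 among Müller glia markers. Of amacrine markers 0 were called, with Gad2 at 0.51 ± 0.41 (turned -0.30). The turned list medians were -0.01 for microglia, -0.03 for bipolar, 0.03 for amacrine and 0.03 for Müller glia markers. The part of these cell types in the values of the phototransduction genes was not tested.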

How the data were processed

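The deposited values are the authors' series table of 41048 probes on 8 arrays, which all set large-cell against small-cell RNA. The sources used here name no background correction, normalization or genome build, and scanner intensities were not used. The deposited values were taken as log2 ratios: of 88 distances between common values, 67 matched a log2 of a ratio of small whole numbers within rounding, 18 a log10 and 2 a natural log. Array medians lie between -0.08 and 0.03. Which channel is the numerator stays unknown. Values of a size above 15 (73 values) or of exactly 0 (574 values) were set missing, which touched no probe of the members. Probes were named through the platform's probe table, with symbols updated by gene ID through RefSeq (GRCr8): 23374 probes had 1 symbol, 48 several and 17626 none, 23327 IDs matched and 1 symbol changed. A gene is the mean of its probes and needed 6 arrays, which left 14801 of 14802 genes.

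The mean was tested against 0 with limma 3.58.1 under R 4.3.3 (lmFit, eBayes, Benjamini-Hochberg over all genes). The labels mention technical subreplicates but not which arrays share a source, so arrays entered singly, and p-values measure the spread between arrays, which may be partly technical. The number of arrays limits the precision. On simulated data with the real spread of 14665 genes, 52% of 100 genes changed by 0.5 and 91% of 100 changed by 1 were recovered, with 0 false calls. The noise was drawn separately for each array. This check therefore cannot show how many false calls arise where arrays share a source. The members, classes and lists were chosen with earlier results of these data known. All members are named. From other lists, called genes are named, or the largest where none was called. Alternatives were unmasked values, centring, scaling, the median over probes, all 8 arrays needed, set in the model, arrays averaged in pairs, turned signs, and arrays left out. Python 3.11.15 and matplotlib 3.10.9 drew the plots.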

Additional observations from a re-analysis of the deposited data

Results flagged for a closer look

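Gucy2d, a photoreceptor guanylate cyclase, had a value of -0.59 on array 40, and the gap to its nearest value took 0.584 of its whole range over 8 arrays (above the critical value of Dixon's test). The other 7 arrays lay between -0.02 and 0.39. It was the only one of 41 series of values examined, 37 genes and 4 class means, and chance alone passes this value in about 1 in 20.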

How the results depend on the processing

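Of the 37 measured phototransduction genes, 4 were called on the mean of 8 arrays, all positive, where 0.568% of all genes were called on that side. The count was 4 to 5 when each array was left out in turn. The same 4 were called on values as deposited, centred or scaled arrays, medians over probes and genes on all 8 arrays. Of these settings only centring and scaling could change the ratios of the 4 genes themselves. Each had at most 2 probes, and none of their values was masked or missing. The count was 13 with set in the model, 7 without arrays 39 and 40, 0 with arrays averaged in the order of title numbers (lowest limma adjusted p over all genes 0.0836) and 8, with none of the 4, with the signs of set 2 turned. That turn moved the median over members from 0.26 to 0.0080, that of cone genes from 0.21 to 0.062 and that of shared genes from 0.21 to -0.051, while rod genes moved from 0.34 to 0.20. The turn gives the difference between the sets by construction. Over these alternatives the limma adjusted p ran from 0.00201 to 0.573 for Gnat2, 0.00263 to 0.913 for Slc24a1, 0.0051 to 0.946 for Ppef2 and 0.00287 to 0.995 for Rdh12, the highest in each case with signs turned. Turned means of opposite sign to the plain mean were -0.087 for Pde6c, -0.20 for Gnb3, -0.26 for Opn1sw, 0.26 for Slc24a2, -0.16 for Cngb1, -0.12 for Pde6a, 0.33 for Gngt1, -0.027 for Ppef2, -0.16 for Guca1b, -0.25 for Rdh8, -0.34 for Rbp3, -0.26 for Crx, -0.063 for Rcvrn, -0.30 for Rorb, -0.12 for Grk1, -0.051 for Pde6d and -0.24 for Samd7. Members near 0 changed sign elsewhere: Slc24a2 was 0.00025 with centred arrays and 0.035 without arrays 39 and 40, where Gucy2f was -0.063 and Unc119 -0.069. Leaving out arrays in turn gave ranges of -0.073 to 0.098 for Pde6h, -0.10 to 0.092 for Slc24a2, -0.070 to 0.067 for Gngt1, -0.029 to 0.15 for Guca1a, -0.0063 to 0.13 for Gucy2d, -0.12 to 0.18 for Gucy2f, -0.16 to 0.13 for Unc119 and -0.098 to 0.089 for Samd7. The cause of these changes was not tested. No paired analysis was possible because all arrays form 1 group. That averaging assumes pairs that the labels do not give, and 43 and 69 are not consecutive. Without scanner signals, dim probes could not be left out.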
